A study of Homo sapiens with 12 samples.

Results

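The integrated stress response and amino acid genes are a list of 38 named genes, found in the deposited count table by gene name. All 38 were present among 58735 annotated rows and all 38 were among the 16702 genes with enough counts to be tested. They comprised 3 kinases, 6 transcription factors, 6 feedback and stress effectors, 9 enzymes of amino acid and one-carbon metabolism, 4 amino acid transporters and 10 aminoacyl-tRNA synthetases. Poly(A)-selected RNA was sequenced from Beas-2b, an immortalised human bronchial epithelial cell line. ANT1 knockout (KO) cells, made by CRISPR editing of SLC25A4, and wildtype (WT) cells were each studied after bleomycin or in control medium, with 3 libraries in each of the 4 groups. SLC25A4 encodes adenine nucleotide translocase 1, a carrier of the inner mitochondrial membrane that swaps ADP for ATP. Bleomycin, a drug that breaks DNA, was given at 10 mg/ml over 2 days to induce senescence, according to the labels. The KO cells are described as clones without their number, and an effect of the genotype and one of a clone cannot be told apart. Replicates are called biological by the submitters, and separate cultures are not specified further, so p-values measure the spread between these libraries.

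In the integrated stress response, kinases that sense different stresses phosphorylate the translation initiation factor eIF2α. General protein synthesis then falls while translation of ATF4 mRNA rises, and the ATF4 protein, often paired with a C/EBP protein, switches on genes that supply amino acids, charge tRNAs, defend redox balance and reset the pathway. PERK answers to unfolded protein in the endoplasmic reticulum, GCN2 to uncharged tRNA, and HRI to haem shortage and to signals from damaged mitochondria. Since the kinases and ATF4 are controlled largely at the protein level, transcript levels show the targets of the pathway more directly than its trigger.

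The element that ATF4 and C/EBP proteins bind together, the C/EBP-ATF response element, has the core TGATGNAA, where N is any base. This core was searched on both strands of RefSeq promoters (GRCh38.p14), each running from 250 bases before to 50 bases after a transcript start. Promoters were found for 32 of the 38 genes, and the remaining 6 were ALDH1L2, EIF2AK1, NUPR1, PSPH, SHMT2 and YARS. The core stood in a promoter of 11 of these 32 genes (34.4%), against 4.46% of all 27305 genes in the promoter table. A gene can have several promoters, and by single promoter the shares were 22.4% and 3.62%. The list was drawn up around this response, so the shares are not independent of that choice, and their difference was not tested. In 6 genes the match lay upstream of the RefSeq transcript start used. Those 6 are printed here because they are the places in the listed promoters where the response element core could be read before the start, each with the flanking bases, 5′ to 3′ on the strand of the gene, and with the core or its reverse complement in capitals.
AARS: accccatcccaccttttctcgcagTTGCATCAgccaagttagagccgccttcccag
ASNS: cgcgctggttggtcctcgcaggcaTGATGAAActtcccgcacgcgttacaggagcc
CEBPG: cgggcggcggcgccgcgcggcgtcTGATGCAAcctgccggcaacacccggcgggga
CHAC1: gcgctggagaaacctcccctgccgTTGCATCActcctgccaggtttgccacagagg
GARS: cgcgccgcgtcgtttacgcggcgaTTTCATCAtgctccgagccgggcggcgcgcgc
IARS: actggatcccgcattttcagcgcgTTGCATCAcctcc

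The stretches lie at chr16:70289662-70289717 for AARS (minus strand), chr7:97872445-97872500 for ASNS (minus strand), chr19:33374047-33374102 for CEBPG (plus strand), chr15:40953238-40953293 for CHAC1 (plus strand), chr7:30594821-30594876 for GARS (plus strand) and chr9:92293698-92293734 for IARS (minus strand). Counting the start as position 0, the first base of the core lay at -187 in AARS, -68 in ASNS, -42 in CEBPG, -209 in CHAC1, -33 in GARS and -13 in IARS. By the deposited gene coordinates, the AARS stretch lies outside its gene. Those of ASNS, CEBPG, CHAC1, GARS and IARS lie inside the annotated gene, so they are upstream only of the RefSeq start used. In MARS, NARS, SLC3A2, SLC7A1 and TARS the match reached or followed the start. Of the 32 genes with a promoter, the core was present in 8 of the 20 that rose after bleomycin in WT cells, in 0 of the 3 that fell and in 3 of the 9 that passed in neither direction. The endoplasmic reticulum stress response element, searched by its consensus in the same windows on both strands, was found in 0 of the 32 genes and in 0.0916% of all genes. At so low a share of all genes, 0 matches among 32 genes say little about the list. A match describes letters in a window and no binding was measured here.

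Library totals lay between 15.75 and 21.92 megacounts, and levels are given as CPM, the count of a gene scaled to a common library size by TMM. The targeted gene SLC25A4 had 4.70, 4.09 and 5.0 CPM in KO bleomycin libraries and 5.08, 6.97 and 4.81 CPM in KO control libraries. It had 16.1, 22.4 and 27.5 CPM in WT bleomycin libraries and 22.8, 16.6 and 18.3 CPM in WT control libraries, so that every KO library lay below every WT library. Replicate 2 of the KO control group stood apart: 0.364% of its counts were mitochondrial, against 3.86% to 5.13% in the other libraries. Of the 38 genes, 7 were at least 1.5 times the mean of the other KO control libraries in it and 5 were at most the mean divided by 1.5. It held the highest of the 12 levels in 5 of the 38 genes and the lowest in 10. Values without it are given beside several of the named genes that it moved. The keratins KRT8 and KRT18 were abundant (528 ± 45.0 and 150 ± 15.4 CPM in KO bleomycin, 706 ± 41.6 and 287 ± 20.6 in KO control, 444 ± 47.1 and 130 ± 16.3 in WT bleomycin, 672 ± 79.5 and 263 ± 37.2 in WT control; SD, n = 3). Among the other markers of airway epithelium, EPCAM, CDH1, KRT5 and GRHL2 were low. Their highest group means were 1.51 CPM for EPCAM, 2.45 CPM for CDH1, 0.338 CPM for KRT5 and 0.0363 CPM for GRHL2. KRT5 and GRHL2 had 0 counts in all KO control libraries. Of 10 fibroblast markers, whose COL1A1 and THY1 were abundant, the group means summed to 788 CPM in KO bleomycin, 1894 in KO control, 785 in WT bleomycin and 1288 in WT control. At least 1 of the 10 was at 0 in each group. The sums for 10 leukocyte markers were 9.18, 34.6, 8.51 and 21.6 CPM in the same order, and those for 8 endothelial markers were 4.30, 4.21, 4.06 and 3.26 CPM. The 10 airway epithelial markers summed to 744 CPM in KO bleomycin, 1048 in KO control, 641 in WT bleomycin and 993 in WT control. This list also held KRT19, TP63, NKX2-1 and ELF3. In KO bleomycin 4 of the 10 averaged above 1 CPM, and in each other group 6 did. After bleomycin, 2 of the 8 tested rose and 4 fell in KO cells (75% changed, against 43.2% of all tested genes). In WT cells 2 rose and 3 fell (62.5%, against 43.5%). PTPRC and PECAM1, which define leukocytes and endothelium, averaged at most 0.288 and 0.200 CPM in any group. Other markers of these lists were higher: 2 leukocyte markers averaged above 1 CPM in each bleomycin group and 1 in each control group. In every group 1 endothelial marker did so. Log2 changes after bleomycin of the 3 tested leukocyte markers ran from -3.19 to 6.70 in KO cells and from -3.29 to 9.63 in WT cells. The part of these markers in the results that follow was not tested, and in bulk RNA fewer cells of a type and less RNA per cell cannot be told apart.

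Bleomycin against control asks how each genotype responded to the drug. In KO cells 23 of the 38 genes rose and 3 fell (68.4% changed, where 43.2% of all tested genes changed), with a median log2 fold change of 0.57 against 0.00 for all genes. In WT cells 25 rose and 3 fell (73.7%, where 43.5% of all tested genes changed), with a median of 0.71 against 0.02. Of the listed genes, 60.5% rose in KO cells and 65.8% in WT cells, against 22.5% and 23.9% of all tested genes. Rises of at least 2-fold were seen for 10 genes in KO cells and 13 in WT cells, where the share of all genes was 12% in KO cells and 13% in WT cells. Falls made up 7.89% of the list in both genotypes, against 20.7% of all tested genes in KO cells and 19.6% in WT cells.

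A total of 23 genes rose in both genotypes and DDIT4, VLDLR and SLC7A5 fell in both. PHGDH and EIF2AK4 passed as higher in WT cells and not in KO cells, a difference that the interaction test below did not call. The 10 genes that passed in neither genotype were the kinases EIF2AK1 and EIF2AK3, the factor ATF5, the enzymes CTH and CBS, the transporters SLC3A2, SLC7A1 and SLC6A9, and the synthetases NARS and EPRS. Bleomycin and control libraries did not overlap for 26 of the 38 genes in KO cells, against 51.3% of all tested genes, and for 30 in WT cells, against 61.3%. Relative to the mean of the WT control libraries, the median of the 38 genes per library was 0.64, 0.77 and 0.74 on the log2 scale in KO bleomycin, 0.12, 0.08 and 0.02 in KO control, 0.72, 0.68 and 0.74 in WT bleomycin and 0.09, -0.04 and -0.06 in WT control. Every bleomycin library stood above every control library by this measure. Without KO control replicate 2, 26 genes rose and 4 fell in KO cells and the same numbers rose and fell in WT cells, and the share of all tested genes that changed was also larger, at 48.4% in KO cells and 56.6% in WT cells.

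**Figure D1:**
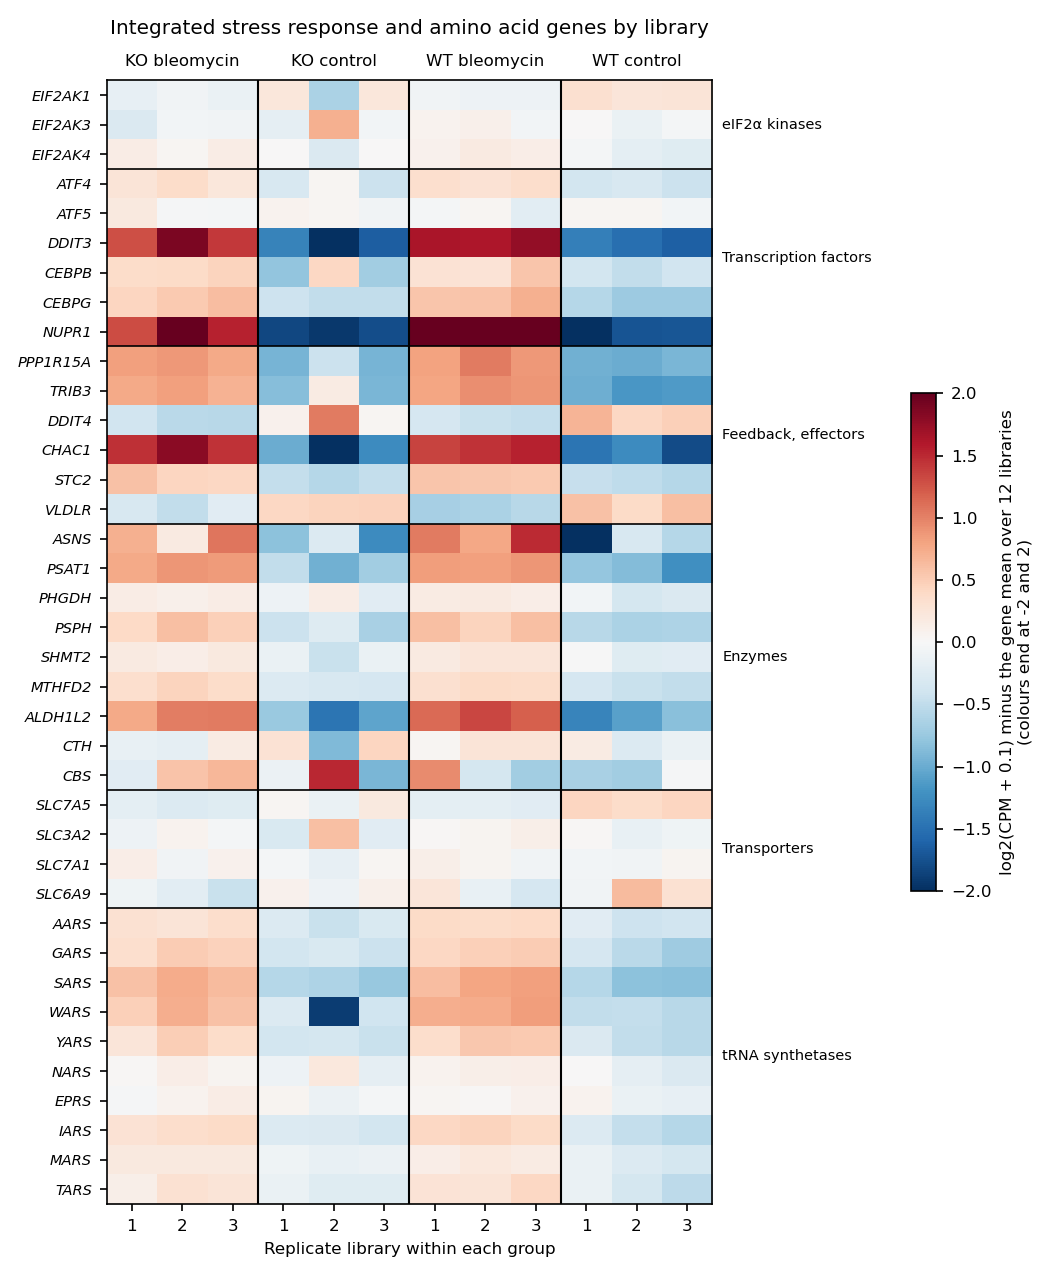
Level of each of the 38 genes (rows, grouped by role) in each of the 12 libraries (columns, 3 per group), as log2(CPM + 0.1) minus the mean of the gene over all libraries. Most rows are red in the bleomycin columns and blue in the control columns, DDIT4, VLDLR and SLC7A5 run the other way, and KO control replicate 2 departs from its group in rows such as WARS, CBS and CHAC1.

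The 3 listed eIF2α kinases changed little. EIF2AK1, which encodes HRI, had 117, 124 and 119 CPM in KO bleomycin libraries, against 153, 84.7 and 153 CPM in KO control libraries. In WT cells its levels were 124, 122 and 123 CPM after bleomycin, against 163, 155 and 157 CPM in control medium. The groups did not overlap in WT cells, and in KO cells the low replicate 2 overlapped with the bleomycin libraries. EIF2AK1 overlaps AIMP2 over 1591 bases, so reads of the overlap may be mixed. It passed in neither genotype (log2 fold change -0.12, SE 0.17, adjusted p = 0.603 in KO cells; -0.37, SE 0.17, adjusted p = 0.0946 in WT cells). Without KO control replicate 2 it fell in both, by 0.35 on the log2 scale in KO cells (adjusted p = 0.000159) and by 0.37 in WT cells (adjusted p = 2.03e-05). In WT cells EIF2AK1 also fell without a filter on low counts and when the fit held only the WT groups. The main fit estimates the spread over all 4 groups together, so its WT p-values also carry the spread of KO libraries.

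EIF2AK3, which encodes PERK, had 24.1, 28.3 and 28.0 CPM in KO bleomycin libraries, against 25.9, 48.3 and 28.4 CPM in KO control libraries. It had 30.8, 31.8 and 28.4 CPM in WT bleomycin libraries, against 29.6, 27.0 and 28.5 CPM in WT control libraries. Both pairs of groups overlapped, and neither difference passed (-0.35, SE 0.19, adjusted p = 0.147 in KO cells; 0.10, SE 0.19, adjusted p = 0.713 in WT cells). The KO value rested on KO control replicate 2: it was -0.02 without that library (adjusted p = 0.864), and -0.52 without KO control replicate 1, where it passed (adjusted p = 0.0302). EIF2AK4, which encodes GCN2, had 138, 128 and 139 CPM in KO bleomycin libraries, against 125, 102 and 125 CPM in KO control libraries. It had 133, 141 and 137 CPM in WT bleomycin libraries, against 122, 109 and 105 CPM in WT control libraries. Neither pair of groups overlapped. EIF2AK4 passed in WT cells, 1.22-fold higher (0.29, SE 0.10, adjusted p = 0.0268), and not in KO cells (0.20, SE 0.10, adjusted p = 0.119), where the value was 0.10 without KO control replicate 2 (adjusted p = 0.298). The WT call was lost without any 1 of 5 WT libraries, with adjusted p up to 0.114, and was kept without WT control replicate 1.

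Of the 6 transcription factors, 5 rose in both genotypes. ATF4 encodes the central activator of the response. Its transcript had 320.5, 345 and 315 CPM in KO bleomycin libraries, against 216, 276 and 199 CPM in KO control libraries. In WT cells it had 339, 329 and 344 CPM after bleomycin, against 209, 214 and 198 CPM in control medium. No bleomycin library overlapped with a control library of its genotype, and the rise was small beside that of several targets: 1.42-fold in KO cells (log2 fold change 0.50, SE 0.11, adjusted p = 0.00232) and 1.63-fold in WT cells (0.70, SE 0.11, adjusted p = 0.000170). KO control replicate 2 was the high point of its group, and without it the log2 values were 0.65 in KO cells and 0.70 in WT cells.

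DDIT3, which encodes CHOP, a factor linked to cell death under lasting stress, had 37.7, 57.2 and 41.4 CPM in KO bleomycin libraries, against 6.04, 3.48 and 4.86 CPM in KO control libraries. It had 48.0, 47.6 and 52.3 CPM in WT bleomycin libraries, against 5.90, 5.36 and 4.92 CPM in WT control libraries. The lowest bleomycin library stood far above the highest control library. The rise was 9.46-fold in KO cells (3.24, SE 0.20, adjusted p = 3.82e-08) and 9.13-fold in WT cells (3.19, SE 0.19, adjusted p = 2.92e-08). On the log2 scale it was 3.06 in KO cells and 3.19 in WT cells without KO control replicate 2. The annotated span of DDIT3 overlaps that of MARS over 982 bases and that of MBD6 over 1028 bases, both on the opposite strand, and no source used here says whether counting used strand, so reads of the overlap may be mixed. MARS itself rose 1.24-fold in KO cells and 1.34-fold in WT cells.

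NUPR1, a small chromatin-associated stress protein, showed the largest rise of the list in both genotypes. It had 15.6, 26.3 and 18.2 CPM in KO bleomycin libraries, against 1.69, 1.56 and 1.75 CPM in KO control libraries. In WT cells it had 26.4, 27.7 and 33.1 CPM after bleomycin, against 0.967, 1.82 and 1.84 CPM in control medium. Counts in the control libraries were 19 to 40, and bleomycin and control libraries were far apart. The fitted rise was 12-fold in KO cells (3.58, SE 0.25, adjusted p = 1.29e-07) and 18.8-fold in WT cells (4.23, SE 0.25, adjusted p = 2.03e-08).

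The C/EBP members also rose. CEBPG, which pairs with ATF4, averaged 86.8 ± 5.29 CPM in KO bleomycin and 43.7 ± 1.37 CPM in KO control, and 92.4 ± 5.65 CPM in WT bleomycin and 37.8 ± 2.42 CPM in WT control (SD, n = 3). Its rise was 1.99-fold in KO cells (adjusted p = 1.46e-06) and 2.44-fold in WT cells (adjusted p = 9.34e-08). CEBPB had 183, 184 and 193 CPM in KO bleomycin libraries, against 82.2, 188 and 87.2 CPM in KO control libraries, so that 1 control library lay among the bleomycin ones. In WT cells it had 172, 171 and 207 CPM after bleomycin, against 109.8, 100.3 and 109 CPM in control medium. It rose 1.57-fold in KO cells (0.65, SE 0.24, adjusted p = 0.0457), and by 1.14 on the log2 scale without KO control replicate 2 (adjusted p = 6.71e-10). The KO call was lost when any 1 of the other 11 libraries was left out, with adjusted p up to 0.150. In WT cells it rose 1.73-fold (0.79, SE 0.24, adjusted p = 0.0191), which was lost without WT bleomycin replicate 3, WT control replicate 2 or WT control replicate 3, with adjusted p up to 0.0692. ATF5, a relative of ATF4 known from mitochondrial stress, averaged 17.9 ± 1.69 CPM in KO bleomycin and 17.4 ± 0.931 CPM in KO control, and 16.5 ± 1.46 CPM in WT bleomycin and 17.3 ± 0.687 CPM in WT control (SD, n = 3). It passed in neither genotype (adjusted p = 0.834 and 0.632). ATF5 overlaps NUP62 over 1062 bases on the opposite strand, so its level is uncertain to that extent.

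All 6 feedback and stress effectors changed, 4 upward and 2 downward in both genotypes. CHAC1, an enzyme that degrades glutathione, had 18.9, 24 and 18.8 CPM in KO bleomycin libraries, against 3.38, 1.31 and 2.79 CPM in KO control libraries. It had 17.6, 18.6 and 20.0 CPM in WT bleomycin libraries, against 2.39, 2.77 and 1.89 CPM in WT control libraries. The groups were well separated, with a rise of 8.19-fold in KO cells (3.03, SE 0.25, adjusted p = 6.41e-07) and 7.91-fold in WT cells (2.98, SE 0.25, adjusted p = 5.46e-07). Without KO control replicate 2 the log2 values were 2.73 in KO cells and 2.98 in WT cells. TRIB3, a pseudokinase that restrains ATF4 and CHOP, had 115, 119.6 and 109.9 CPM in KO bleomycin libraries, against 37.7, 76.4 and 36.2 CPM in KO control libraries. It had 117, 130.0 and 125 CPM in WT bleomycin libraries, against 34.6, 30.3 and 31.0 CPM in WT control libraries. Every bleomycin library lay above every control library, including the high KO control replicate 2. The rise was 2.29-fold in KO cells (1.20, SE 0.22, adjusted p = 0.000844) and 3.88-fold in WT cells (1.96, SE 0.23, adjusted p = 1.66e-05), and in KO cells it was 1.63 on the log2 scale without that library.

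PPP1R15A encodes GADD34, the phosphatase subunit that removes phosphate from eIF2α and so ends the response. It had 218, 226 and 207 CPM in KO bleomycin libraries, against 64.8, 91.2 and 64.8 CPM in KO control libraries. In WT cells it had 214, 253 and 223 CPM after bleomycin, against 63.4, 61.5 and 65.1 CPM in control medium. The groups did not overlap, and PPP1R15A rose 2.95-fold in KO cells (1.56, SE 0.13, adjusted p = 5.69e-07) and 3.63-fold in WT cells (1.86, SE 0.13, adjusted p = 8.85e-08). STC2, a secreted glycoprotein, averaged 1028 ± 67.7 CPM in KO bleomycin and 519.6 ± 18.3 CPM in KO control, and 1074 ± 13.1 CPM in WT bleomycin and 518 ± 19.0 CPM in WT control (SD, n = 3). It rose 1.98-fold in KO cells (adjusted p = 9.22e-07) and 2.07-fold in WT cells (adjusted p = 3.80e-07).

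DDIT4 and VLDLR went the other way. DDIT4 encodes REDD1, an inhibitor of mTORC1 signalling. It had 77.3, 68.9 and 68.6 CPM in KO bleomycin libraries, against 106, 206 and 104 CPM in KO control libraries. Levels in WT cells were 79.9, 74.2 and 71.9 CPM after bleomycin, against 161, 134 and 139.7 CPM in control medium. Each bleomycin library lay below each control library of its genotype, and DDIT4 fell 1.94-fold in KO cells (-0.96, SE 0.21, adjusted p = 0.00301) and 1.92-fold in WT cells (-0.94, SE 0.21, adjusted p = 0.00295). Without KO control replicate 2 the KO value was -0.56 (adjusted p = 1.41e-05). VLDLR, a lipoprotein receptor, had 27.5, 24.6 and 29.6 CPM in KO bleomycin libraries, against 45.7, 46.8 and 47.8 CPM in KO control libraries. It had 21.8, 22.2 and 23.3 CPM in WT bleomycin libraries, against 51.8, 45.2 and 52.2 CPM in WT control libraries. The groups did not overlap, and VLDLR fell 1.72-fold in KO cells (-0.78, SE 0.10, adjusted p = 3.33e-05) and 2.22-fold in WT cells (-1.15, SE 0.10, adjusted p = 8.11e-07).

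**Figure D2:**
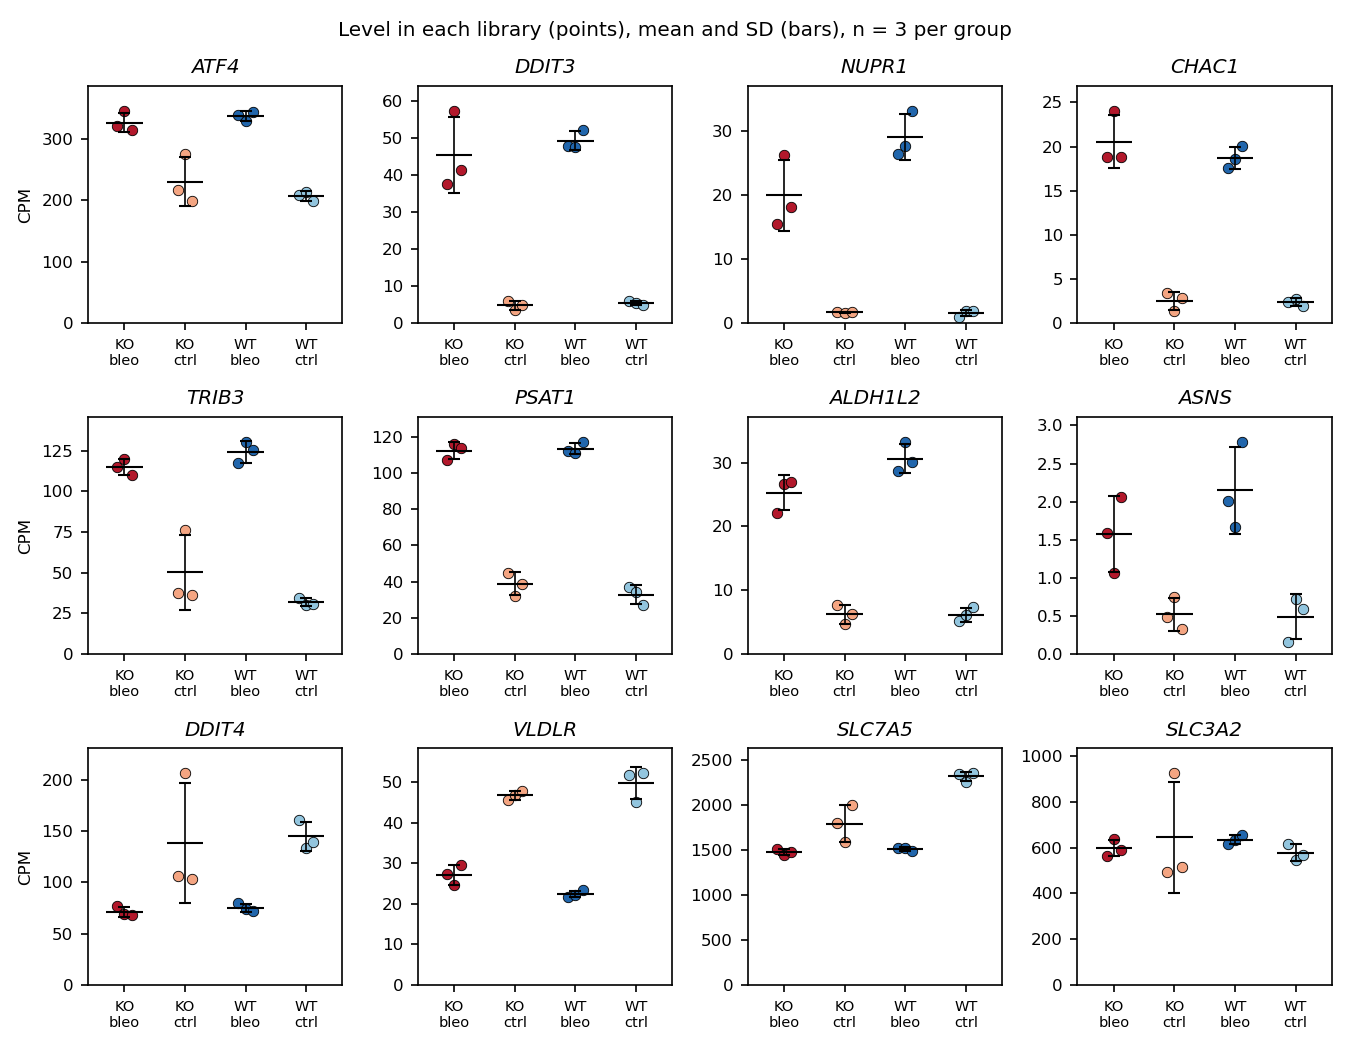
CPM (vertical axes, from 0) in each library for 12 of the genes, with points for libraries, horizontal lines for group means and bars for SD (n = 3 per group). DDIT3, NUPR1 and CHAC1 are near the axis in both control groups, DDIT4, VLDLR and SLC7A5 are lower after bleomycin, and KO control replicate 2 is the high point of its own group for TRIB3, DDIT4 and SLC3A2.

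Among the 9 enzymes, 6 rose in KO cells and 7 in WT cells, and none fell. The largest rise was that of ALDH1L2, the mitochondrial formyltetrahydrofolate dehydrogenase. It had 22.1, 26.7 and 27.0 CPM in KO bleomycin libraries, against 7.73, 4.67 and 6.23 CPM in KO control libraries. Levels in WT cells were 28.6, 33.2 and 30.1 CPM after bleomycin, against 5.14, 6.08 and 7.30 CPM in control medium. These groups did not overlap, with a rise of 4.06-fold in KO cells (2.02, SE 0.18, adjusted p = 1.34e-06) and 4.96-fold in WT cells (2.31, SE 0.18, adjusted p = 2.74e-07). The span of ALDH1L2 overlaps that of C12orf45 over 54414 bases on the opposite strand, and C12orf45 had 5134 counts in all libraries against 3731 for ALDH1L2, so its level is uncertain.

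ASNS, which makes asparagine and carries the response element core shown above, was the least abundant gene of the list per length, at 0.349 FPKM in KO bleomycin and 0.116 FPKM in KO control, and 0.478 FPKM in WT bleomycin and 0.110 FPKM in WT control (group means). Its counts were 25, 20 and 38 in KO bleomycin libraries, against 8, 12 and 6 in KO control libraries. They were 39, 29 and 52 in WT bleomycin libraries, against 3, 16 and 11 in WT control libraries. In CPM these were 1.59, 1.06 and 2.07 in KO bleomycin, against 0.483, 0.747 and 0.328 in KO control, and 2.01, 1.66 and 2.78 in WT bleomycin, against 0.153, 0.726 and 0.595 in WT control. The groups did not overlap and few counts stand behind each value. A transcript on the same strand, AC079781.5, overlaps ASNS over 20425 bases, its whole annotated span. It had 57 counts in all libraries against 259 for ASNS. How reads of the overlap were counted is not known here, so the low level of ASNS is uncertain. ASNS rose 3.03-fold in KO cells (1.60, SE 0.47, adjusted p = 0.0142) and 4.30-fold in WT cells (2.10, SE 0.44, adjusted p = 0.00177). The KO call was lost without KO bleomycin replicate 3 or KO control replicate 3, with adjusted p up to 0.0627. With KO control replicate 2 left out, the KO log2 value was 1.94 (adjusted p = 0.00326).

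The serine pathway, which feeds one-carbon metabolism, rose at each of its steps in WT cells. PHGDH, the first enzyme, averaged 111 ± 2.46 CPM in KO bleomycin and 97.6 ± 13.2 CPM in KO control, and 113 ± 1.46 CPM in WT bleomycin and 86.4 ± 9.94 CPM in WT control (SD, n = 3). Its rise passed in WT cells, at 1.30-fold (adjusted p = 0.0102), and not in KO cells (0.18, SE 0.11, adjusted p = 0.181). The WT call was lost without WT control replicate 2 (adjusted p = 0.0571), and PHGDH passed in KO cells without KO control replicate 2 (0.29, adjusted p = 0.00659). PSAT1, the second enzyme, averaged 112 ± 4.5 CPM in KO bleomycin and 38.7 ± 6.34 CPM in KO control, and 113 ± 3.08 CPM in WT bleomycin and 32.8 ± 5.24 CPM in WT control (SD, n = 3). It rose 2.90-fold in KO cells (adjusted p = 1.01e-06) and 3.46-fold in WT cells (adjusted p = 1.96e-07).

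PSPH, the last enzyme of serine synthesis, rose 1.91-fold in KO cells and 2.23-fold in WT cells. Its copy PSPHP1 had counts equal to 12.6% of those of PSPH, so its level is uncertain to that extent. In the mitochondrial folate branch, SHMT2, which splits serine into glycine and a one-carbon unit, rose 1.32-fold in KO cells (adjusted p = 0.00558) and 1.30-fold in WT cells (adjusted p = 0.00804). MTHFD2, the next enzyme, rose 1.61-fold in KO cells (adjusted p = 9.80e-06) and 1.72-fold in WT cells (adjusted p = 2.39e-06). The transsulfuration enzymes, which make cysteine from homocysteine, did not pass. CTH averaged 2.52 ± 0.358 CPM in KO bleomycin and 2.71 ± 1.17 CPM in KO control, and 3.00 ± 0.270 CPM in WT bleomycin and 2.49 ± 0.419 CPM in WT control (SD, n = 3). CBS varied within groups, from 8.44 to 15.8 CPM in KO bleomycin and from 5.25 to 28.3 CPM in KO control, and from 6.09 to 19.2 CPM in WT bleomycin and from 6.13 to 9.73 CPM in WT control. Without KO control replicate 2 the KO log2 values were -0.42 for CTH and 0.86 for CBS, against -0.11 and -0.12 with it, and neither passed. Its near-identical copy CBSL had counts equal to 45.4% of those of CBS, so the CBS level is uncertain.

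None of the 4 transporters rose. SLC7A5, the large neutral amino acid carrier also called LAT1, was the most abundant gene of the list per length, at 308 FPKM in KO bleomycin and 376 FPKM in KO control, and 314 FPKM in WT bleomycin and 486 FPKM in WT control (group means). Its levels were 1513, 1439.7 and 1477 CPM in KO bleomycin libraries, against 1793, 1583 and 1996 CPM in KO control libraries. In WT cells they were 1524, 1515 and 1482 CPM after bleomycin, against 2337, 2256 and 2348 CPM in control medium. Bleomycin libraries lay below control libraries in both genotypes. SLC7A5 fell 1.21-fold in KO cells (-0.28, SE 0.10, adjusted p = 0.0315) and 1.54-fold in WT cells (-0.62, SE 0.10, adjusted p = 0.000166). The KO call was lost without any single KO bleomycin library, without KO control replicate 1 or 3 and without WT bleomycin replicate 2, with adjusted p up to 0.143, and was kept without KO control replicate 2 (adjusted p = 0.00103).

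SLC3A2, the heavy chain that partners SLC7A5, had 565, 636 and 590.1 CPM in KO bleomycin libraries, against 492, 924 and 517 CPM in KO control libraries. It had 616, 632 and 654 CPM in WT bleomycin libraries, against 617, 547 and 568 CPM in WT control libraries. The groups overlapped in both genotypes, and neither difference passed (-0.11, SE 0.19, adjusted p = 0.666 in KO cells; 0.14, SE 0.19, adjusted p = 0.597 in WT cells). The KO value rested on replicate 2 of the controls: without it SLC3A2 was higher after bleomycin (0.24, adjusted p = 0.0204). The cationic amino acid carrier SLC7A1 averaged 216 ± 15.6 CPM in KO bleomycin and 201 ± 14.1 CPM in KO control, and 214 ± 14.1 CPM in WT bleomycin and 206 ± 8.94 CPM in WT control (SD, n = 3). The glycine transporter SLC6A9 averaged 23.0 ± 2.84 CPM in KO bleomycin and 27.7 ± 2.10 CPM in KO control, and 26.0 ± 5.38 CPM in WT bleomycin and 33.7 ± 8.11 CPM in WT control, and overlaps CCDC24 over 5029 bases on the opposite strand. Neither passed in either genotype.

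Of the 10 cytosolic aminoacyl-tRNA synthetases, which join each amino acid to its tRNA, 8 rose in both genotypes. The median log2 fold change was 0.65 in KO cells and 0.79 in WT cells. SARS, for serine, rose most, at 319 ± 18.2 CPM in KO bleomycin and 129 ± 8.68 CPM in KO control, and 339 ± 25.1 CPM in WT bleomycin and 121 ± 12.8 CPM in WT control (SD, n = 3). Its rise was 2.47-fold in KO cells (adjusted p = 3.41e-07) and 2.80-fold in WT cells (adjusted p = 8.23e-08). WARS, for tryptophan, had 151, 179 and 162 CPM in KO bleomycin libraries, against 89.6, 28.9 and 81.5 CPM in KO control libraries, where replicate 2 was low. Levels in WT cells were 179, 181 and 192 CPM after bleomycin, against 77.1, 77.2 and 73.4 CPM in control medium. WARS rose 2.46-fold in KO cells (1.30, SE 0.29, adjusted p = 0.00316) and 2.42-fold in WT cells (1.28, SE 0.29, adjusted p = 0.00315). Without KO control replicate 2 the KO value was 0.94.

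GARS, for glycine, IARS, for isoleucine, and AARS, for alanine, which carry the response element core shown above, rose by smaller factors. The core was also found in MARS, TARS and NARS, of which NARS passed in neither genotype. GARS rose 1.75-fold in KO cells and 1.97-fold in WT cells, IARS 1.57-fold in KO cells and 1.80-fold in WT cells, and AARS 1.56-fold in KO cells and 1.65-fold in WT cells. YARS, for tyrosine, which overlaps S100PBP over 1387 bases on the opposite strand, rose 1.69-fold in KO cells and 1.88-fold in WT cells. TARS, for threonine, rose 1.35-fold in KO cells and 1.55-fold in WT cells, and MARS, for methionine, had the smallest rise of the 8. NARS, for asparagine, averaged 178 ± 6.76 CPM in KO bleomycin and 168 ± 24.6 CPM in KO control, and 184 ± 3.95 CPM in WT bleomycin and 154 ± 16.3 CPM in WT control (SD, n = 3). It missed the threshold in KO cells (adjusted p = 0.562) and WT cells (adjusted p = 0.0706) and passed as higher in both without KO control replicate 2 (adjusted p = 0.0436 and 0.00525). In WT cells NARS also passed without WT control replicate 1 and when the fit held only the WT groups. EPRS, for glutamate and proline, averaged 182 ± 11.3 CPM in KO bleomycin and 169.7 ± 10.4 CPM in KO control, and 179.7 ± 3.57 CPM in WT bleomycin and 165 ± 15 CPM in WT control. It passed in neither genotype.

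**Figure D3:**
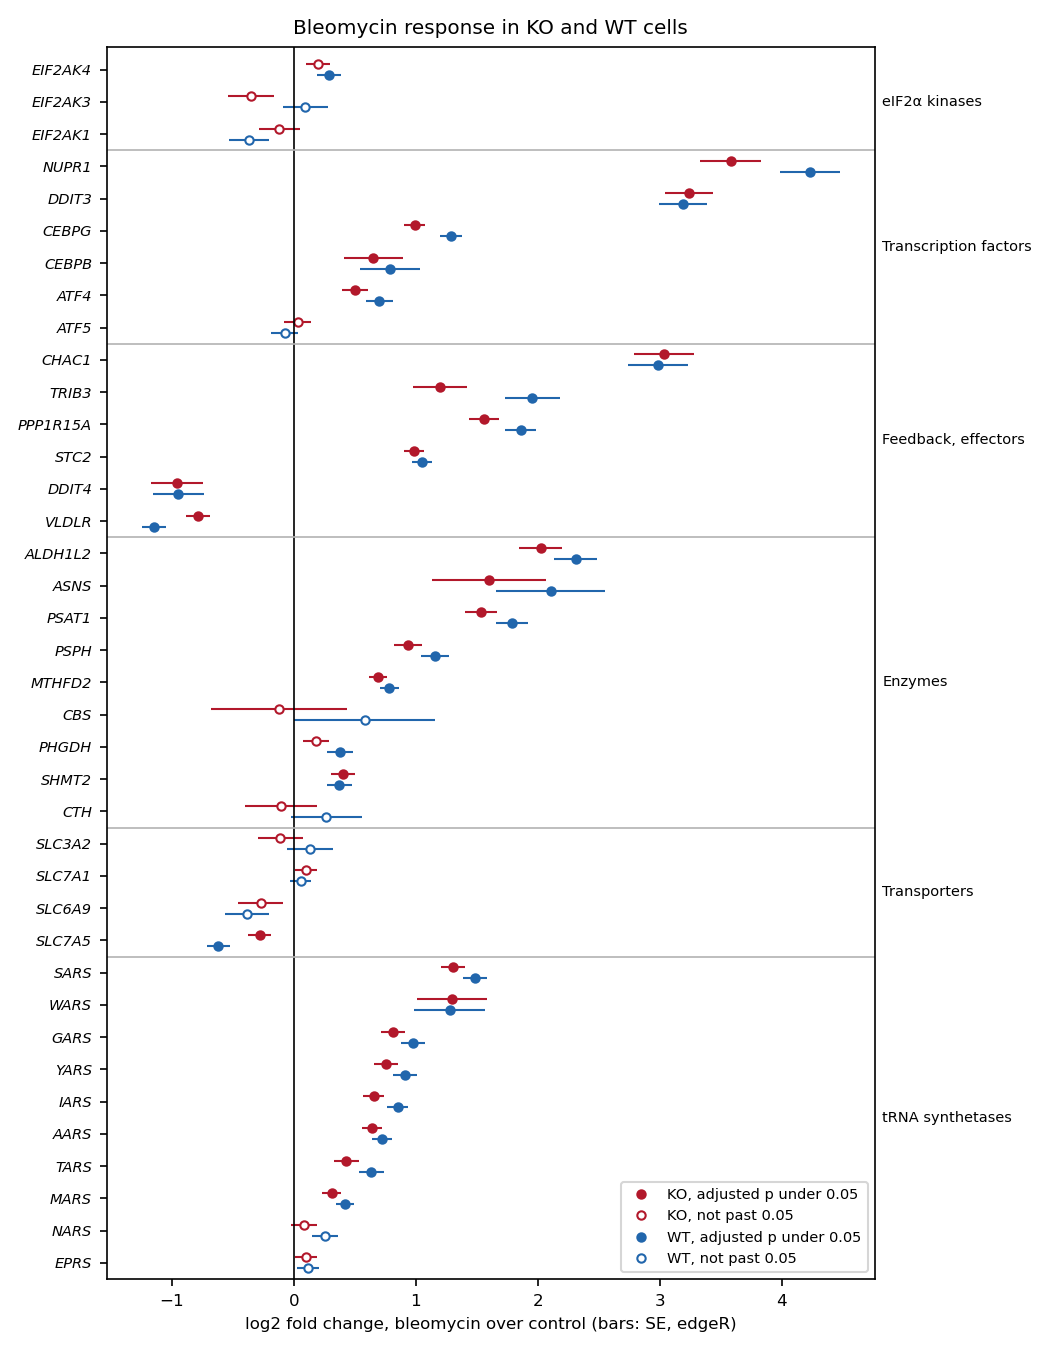
Log2 fold change of bleomycin over control (horizontal axis) for each gene, grouped by role, in KO cells (red, upper point) and WT cells (blue, lower point), with SE bars from edgeR and filled points for adjusted p under 0.05. Filled points lie on the right for 23 genes in KO cells and 25 in WT cells, and on the left for DDIT4, VLDLR and SLC7A5.

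Fewer of the other synthetases changed. The listed ones were chosen with earlier results known, and the difference between lists was not tested. Of 13 other cytosolic synthetases and cofactors, 2 rose and 2 fell in KO cells, and 2 rose and 1 fell in WT cells, with medians of -0.03 and 0.00 on the log2 scale. The share that changed was 30.8% in KO cells and 23.1% in WT cells, against 43.2% and 43.5% of all tested genes. CARS, for cysteine, rose in KO cells (0.41, adjusted p = 0.00529) and in WT cells (0.31, adjusted p = 0.0242), and so did AIMP1, a scaffold of the synthetase complex (0.56, adjusted p = 0.00137, and 0.57, adjusted p = 0.00104). DARS, for aspartate, fell in KO cells (-0.57, adjusted p = 0.000518) and in WT cells (-0.67, adjusted p = 0.000116). Of 17 mitochondrial synthetases, 1 rose and 3 fell in KO cells, and 1 rose and 1 fell in WT cells, with medians of -0.07 and -0.12. Here 23.5% changed in KO cells and 11.8% in WT cells. AARS2 was the one that rose in both genotypes (0.72, adjusted p = 0.00412 in KO cells; 1.08, adjusted p = 0.000192 in WT cells).

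**Figure D4:**
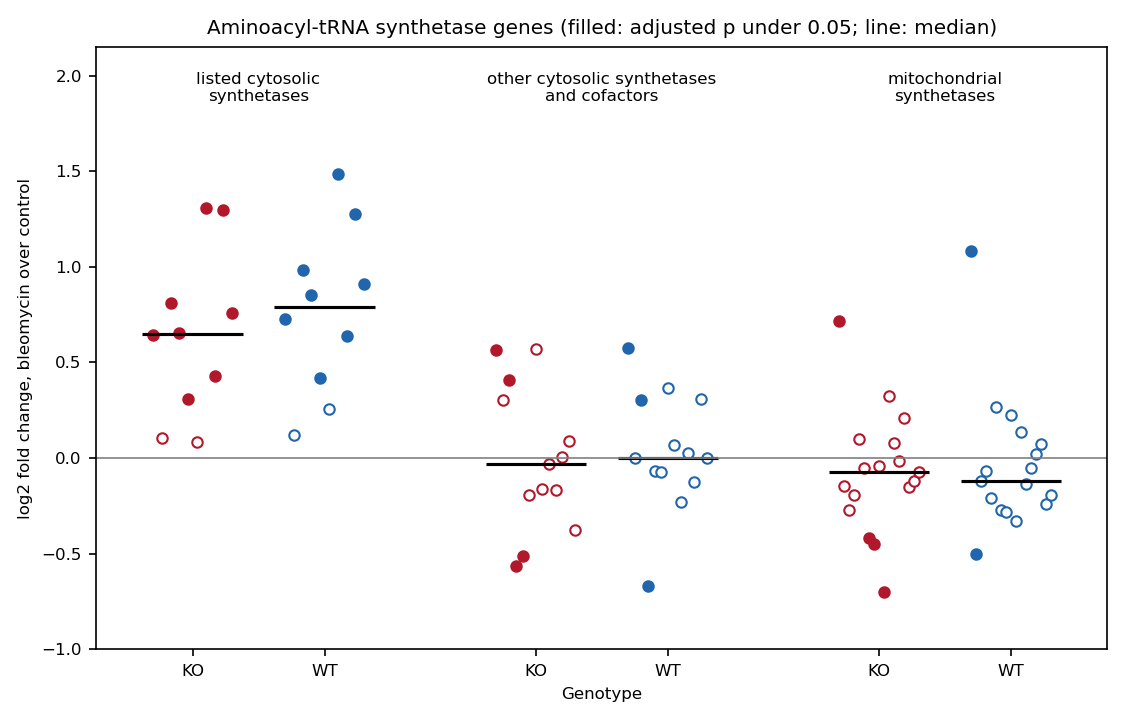
Log2 fold change of bleomycin over control (vertical axis) for the 10 listed cytosolic synthetases, 13 other cytosolic synthetases and cofactors, and 17 mitochondrial synthetases, in KO cells (red) and WT cells (blue). Lines mark medians, which are 0.65 and 0.79 for the listed genes and lie between -0.12 and 0.00 for the other lists, and filled points have adjusted p under 0.05.

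Other targets of the response moved in both directions. Of 32 tested, 12 rose and 10 fell in KO cells, and 13 rose and 7 fell in WT cells, with medians of 0.12 and 0.22 on the log2 scale. The share that changed was 68.8% in KO cells and 62.5% in WT cells, against 43.2% and 43.5% of all tested genes. GDF15, a secreted stress hormone, averaged 565 ± 101 CPM in KO bleomycin and 10.2 ± 1.45 CPM in KO control, and 758 ± 14.9 CPM in WT bleomycin and 5.78 ± 0.830 CPM in WT control (SD, n = 3). It rose by 5.79 on the log2 scale in KO cells (SE 0.17, adjusted p = 8.85e-11) and by 7.03 in WT cells (SE 0.18, adjusted p = 1.84e-11). The factor ATF3 rose by 2.98 in KO cells and 3.19 in WT cells, and the haem oxygenase HMOX1 by 3.11 in KO cells and 3.03 in WT cells. The factor CEBPD, of the same family as CEBPB and CEBPG, fell by 2.45 in KO cells (adjusted p = 1.94e-06) and by 2.82 in WT cells (adjusted p = 4.61e-07). GDF15 and SESN2 are also targets of p53. All 20 genes of a p53 target list, GDF15 among them, rose in both genotypes, with medians of 3.02 in KO cells and 3.23 in WT cells. Among all tested genes, 22.5% rose in KO cells and 23.9% in WT cells. The part of p53 in the changes described here was not tested.

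Of 22 chaperone and unfolded protein response genes of the endoplasmic reticulum, 4 rose and 2 fell in KO cells, and 5 rose and 3 fell in WT cells, with medians of 0.12 and 0.04. The shares that rose, 18.2% in KO cells and 22.7% in WT cells, were near those of all tested genes, 22.5% and 23.9%. ERN1, which encodes the stress sensor IRE1, rose 4.82-fold in KO cells (adjusted p = 3.66e-07) and 6.85-fold in WT cells (adjusted p = 4.59e-08). DNAJB9, a co-chaperone, rose 1.93-fold in KO cells (adjusted p = 8.51e-05) and 2.72-fold in WT cells (adjusted p = 1.76e-06). HSPA5, the chaperone BiP, chosen after its values were seen, passed in neither genotype (-0.19, SE 0.15, adjusted p = 0.312 in KO cells; -0.05, SE 0.15, adjusted p = 0.816 in WT cells). Of 20 genes of the eIF2 machinery, 2 rose and 5 fell in KO cells, and 3 rose and 2 fell in WT cells. The share that changed was 35% in KO cells and 25% in WT cells, against 43.2% and 43.5% of all tested genes. IMPACT, an inhibitor of GCN2, rose 1.5-fold in KO cells and 1.72-fold in WT cells, and PPP1CC, a catalytic subunit of protein phosphatase 1, fell 1.61-fold in KO cells and 1.53-fold in WT cells.

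In metabolism outside the list, 4 of 24 further serine and one-carbon genes rose and 6 fell in KO cells, and 4 rose and 4 fell in WT cells. The share that changed was 41.7% in KO cells and 33.3% in WT cells, against 43.2% and 43.5% of all tested genes. GLDC, of the glycine cleavage system, averaged 3.23 ± 0.391 CPM in KO bleomycin and 0.235 ± 0.101 CPM in KO control, and 4.60 ± 1.38 CPM in WT bleomycin and 0.366 ± 0.0114 CPM in WT control (SD, n = 3), a rise of 3.74 in KO cells and 3.63 in WT cells on the log2 scale. SHMT1, the cytosolic counterpart of SHMT2, fell 1.5-fold in KO cells (adjusted p = 0.000112) and 1.67-fold in WT cells (adjusted p = 1.13e-05). Of 18 other amino acid transporters, 8 rose and 6 fell in KO cells, and 7 rose and 5 fell in WT cells. Here 77.8% changed in KO cells and 66.7% in WT cells. SLC7A11, the cystine carrier, which is also on the list of other targets, rose 2.47-fold in KO cells (adjusted p = 2.54e-06) and 3.06-fold in WT cells (adjusted p = 2.60e-07).

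KO against WT asks what loss of ANT1 changed without and with the drug. With edgeR, 0 of the 38 genes passed in bleomycin, where 0.0479% of all tested genes did, and 0 passed in control medium, where 0.168% did. DESeq2 called 0 in bleomycin and 1 in control medium, SLC7A5, lower in KO cells. Unadjusted p fell under 0.05 for 2 of the 38 in bleomycin (5.26%, against 6.6% of all genes) and for 3 in control medium (7.89%, against 9.94%). Median log2 differences were -0.06 in bleomycin and 0.10 in control medium, against 0.00 and 0.02 for all genes, and the control medium median was 0.05 without KO control replicate 2. KO lay below WT in 29 of the 38 genes in bleomycin (76.3%, against 50.1% of all genes) and in 9 in control medium (23.7%, against 47.2%). In bleomycin, the genes under 0.05 before adjustment were NUPR1 (-0.54, SE 0.20, adjusted p = 0.590) and VLDLR (0.28, SE 0.10, adjusted p = 0.568). All KO bleomycin libraries lay below all WT bleomycin libraries for NUPR1 and above them for VLDLR.

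In control medium, the genes under 0.05 before adjustment were SLC7A5 (-0.37, SE 0.10, adjusted p = 0.202), TRIB3 (0.65, SE 0.22, adjusted p = 0.398) and CEBPG (0.21, SE 0.09, adjusted p = 0.487). All KO control libraries lay below all WT control libraries for SLC7A5 and above them for TRIB3 and CEBPG. TRIB3 stood at 76.4 CPM in KO control replicate 2, and its difference without that library was 0.21 (adjusted p = 0.350). DDIT4 was the 1 gene called without that library, lower in KO control cells (-0.46, adjusted p = 0.00686), against -0.06 (SE 0.21, adjusted p = 0.919) with it. CBS had the largest difference in control medium (0.94, SE 0.57, adjusted p = 0.564), and without that library it was -0.03.

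The interaction, meaning the log2 response to bleomycin in KO cells minus that in WT cells, was called by edgeR for 0 of the 38 genes and for 0% of all tested genes, and by DESeq2 for 0 of the 38, and the smallest adjusted p among the 38 was 0.899. Unadjusted p fell under 0.05 for 4 of the 38 (10.5%, against 4.61% of all genes): TRIB3 (-0.76, SE 0.31), CEBPG (-0.30, SE 0.12), VLDLR (0.37, SE 0.14) and SLC7A5 (0.34, SE 0.14). For each of the 4 the fitted response was of the same sign and smaller in KO cells. KO control replicate 2 carried much of the TRIB3 value, which was -0.32 without it (adjusted p = 0.452). The interaction was negative in 28 of the 38 genes (73.7%, against 54.3% of all genes), with a median of -0.16 against -0.03. Without KO control replicate 2 the median was -0.12 and 0 of the 38 were called. A p above the threshold does not show that the genotypes responded alike, and the SE of the interaction for the 38 genes ran up to 0.80 on the log2 scale, for CBS.

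**Figure D5:**
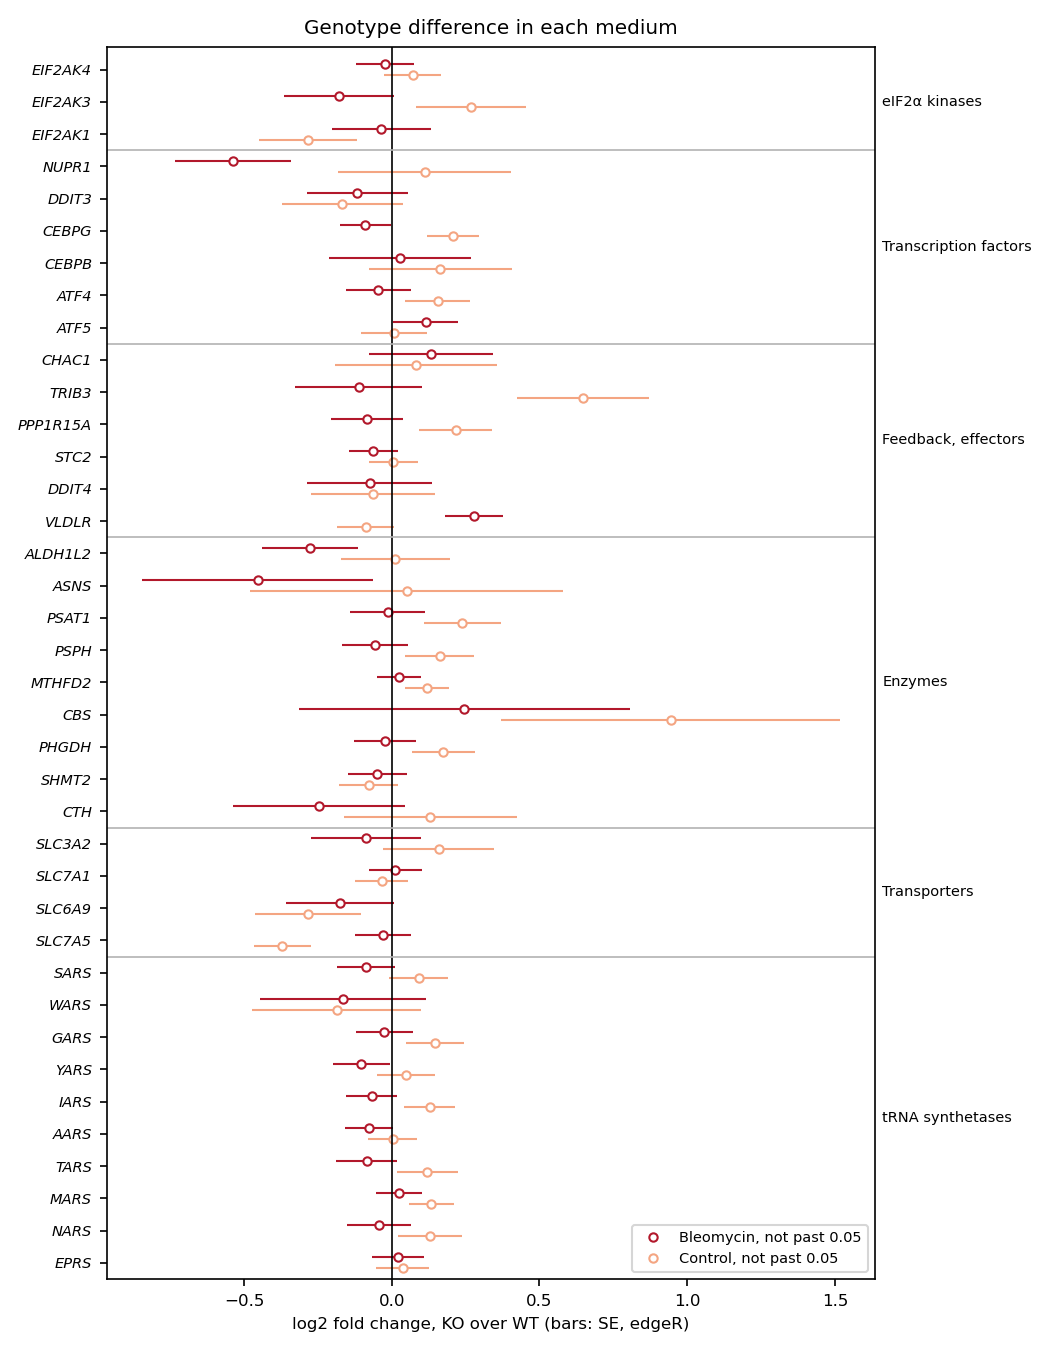
Log2 fold change of KO over WT (horizontal axis) for each gene, grouped by role, in bleomycin (dark red, upper point) and in control medium (light red, lower point), with SE bars from edgeR. No point is past an adjusted p of 0.05, and the points spread from -0.54 for NUPR1 in bleomycin to 0.94 for CBS in control medium.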

How the data were processed

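RNA from 12 libraries was measured in 4 groups of 3, mapped from sample titles and matching column names. The authors deposited raw counts per gene and FPKM values for 58735 genes. The submitters' processing notes name HISAT2 2.0.5 (an aligner) and featureCounts 1.5.0-p3 (a read counter). Build and strand setting are not given in the sources used here. Of the gene coordinates, 58690 equal those of GENCODE 29 on GRCh38, including all 38 listed genes. Every row named a gene.

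Deposited counts (15.75 to 21.92 megacounts per library) were tested with edgeR 4.0.16 in R 4.3.3: filterByExpr, TMM, a robust quasi-likelihood fit of the 4 group means and Benjamini-Hochberg adjustment over 16702 genes, with a threshold of 0.05. "Rose" and "fell" refer to that threshold. Each SE was obtained from the log2 fold change and its F statistic. The deposited FPKM served to compare levels between genes, and in limma 3.58.1 on log2(FPKM + 1) as an alternative. DESeq2 1.42.0, RLE factors, no filter, a replicate block, fits on the groups compared alone and leaving out each library were other alternatives. The scripts were tested on simulated data with known changes.

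The 38 genes and the other lists were chosen with earlier results of these data known. By rule, values in every library are given for up to 6 called genes per direction with the largest change and groups that do not overlap, for ATF4, DDIT3 and the kinases, and up to 3 called genes are named from each other list. Further genes named, and the values of CEBPB, WARS, CBS and SLC3A2 per library, were chosen after their values were seen. A count of 0 allows up to 3 counts. Intervals of that kind cover counting error only.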

Additional observations from a re-analysis of the deposited data

How the results depend on the processing

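Over the 12 fits that each left out 1 library, the genes that rose numbered 21 to 26 in KO cells and 22 to 26 in WT cells, and those that fell 2 to 4 in KO cells and 3 to 4 in WT cells. Without any filter on low counts, 5 fell in WT cells. Between genotypes in control medium, genes lower in KO numbered 0 to 1 with a library left out, 1 without a filter and 1 with DESeq2 (SLC7A5 in both), and 1 (TRIB3) was higher in KO without a filter. Without a filter, 38341 genes were tested. The response of SLC3A2 in KO cells, -0.11, ranged from -0.27 to 0.24 with a library left out, and turned positive without KO control replicate 2. The cause was not tested. Counts over all genes moved by over 1.5 times between genotypes: 18 higher and 10 lower in KO in control medium became 116 and 59 without that library, 145 and 57 with DESeq2 and 211 and 110 without a filter, and 0 and 0 when the fit held only the groups compared. In bleomycin, 1 higher and 7 lower became 159 and 135 without that library, 26 and 48 with DESeq2, 33 and 48 without a filter and 162 and 150 with only the groups compared. For the interaction, 0 became 0 higher and 9 lower without that library, 0 and 4 with DESeq2 and 1 and 12 without a filter. Same-numbered libraries deviated together in 1 of 18 pairs (correlation over 0.1; range -0.13 to 0.11), so the numbers were not taken as pairs. With the replicate block, 23 genes rose and 3 fell in KO cells, 25 rose and 3 fell in WT cells, and 0 passed between genotypes or in the interaction. ASNS, NUPR1, CHAC1 and CTH rest on few counts, which limits their precision.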
